A study of Mus musculus with 20 samples.

Results

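The insulin-like growth factor (IGF) axis was followed in the brain of mice with spinal muscular atrophy (SMA), through 9 of its genes. These were the 2 ligands Igf1 and Igf2, the 2 receptors Igf1r and Igf2r, and the 5 IGF-binding proteins Igfbp2, Igfbp3, Igfbp4, Igfbp5 and Igfbp7. They were taken by symbol from a table of 45700 genes, and all 9 were above 0 in every one of the 20 libraries. Values are FPKM, fragments scaled to transcript length and to the mapped fragments of the library, so that levels of genes of different length can be set side by side.

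The libraries came from whole brains of the "Taiwanese" model, kept on a congenic FVB background. SMA mice (Smn-/-; SMN2tg/0) lack murine Smn and carry a human SMN2 transgene, and the controls were heterozygous littermates (Smn-/+; SMN2tg/0) that carry the transgene as well. Total cytoplasmic RNA (RNA-seq, all sucrose fractions pooled) and polysomal RNA (POL-seq, polysomal fractions pooled) are called the transcriptome and the translatome. Each genotype and fraction has 2 libraries of postnatal day 5, the early-symptomatic stage, and 3 of postnatal day 7, the late-symptomatic stage, which the study describes as biological replicates. Mouse 1, 2 or 3 below stands for the libraries with that replicate number. The loss of Smn is constitutive and affects every tissue, so a change in brain RNA cannot be assigned to brain cells alone, and whole brain holds neurons, glia, vessels, meninges and choroid plexus together.

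IGF-1 and IGF-2 are secreted growth factors that signal through the receptor tyrosine kinase encoded by Igf1r, which feeds the PI3K-Akt-mTOR route. Igf2r encodes a receptor that carries IGF-2 to lysosomes and also sorts lysosomal enzymes. IGF-binding proteins hold the ligands outside the cell, and proteases release them again. In the developing brain the axis is known for its part in growth and myelination.

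Smn1, the disrupted gene, was read over its whole length at 8.61 to 16.7 FPKM in control libraries and at 9.34 to 17.49 FPKM in SMA libraries, so it does not separate the genotypes and does not test the labels. Snap25, a presynaptic gene of neurons, lay between 182.15 and 417.05 FPKM in all libraries, whereas Tubb3, another neuronal gene, had a value of 0 in the control translatome of day 5 (both mice). A listed 0 in this table can therefore be a failed estimate. The 2 total libraries of SMA mice on day 5 had a Pearson r of 0.844 over the genes tested, the lowest of all replicate pairs, and the library of mouse 1 held low values of Igfbp2, Igfbp7 and the choroid plexus gene Ttr. Several results of the transcriptome are therefore also given without it.

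Igfbp2 had the highest level in the axis, with a mean of 83.7 FPKM over the 20 libraries, followed by Igf2 at 78.8 FPKM. The other binding proteins stood at 37.1 FPKM for Igfbp5, 27.6 FPKM for Igfbp4, 17.2 FPKM for Igfbp7 and 12.02 FPKM for Igfbp3. Igf1r was at 11.3 FPKM, Igf1 at 9.88 FPKM and Igf2r at 8.12 FPKM. Neighbours in this order overlapped in their ranges over the libraries, apart from Igf2, whose lowest library had 53.30 FPKM, and Igfbp5, whose highest had 48.82 FPKM.

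SMA was compared with control by limma on log2(FPKM + 0.1), across the 15247 genes whose mean over all libraries reached 1 FPKM, and a gene was called at an unadjusted p under 0.05. All log2 changes below are SMA over control on that scale unless another comparison is named. In the day 5 transcriptome 2 of the 9 genes were called (Igf2r higher, Igfbp4 lower), beside 8.25% of all genes tested. In the day 5 translatome 3 were called (Igf1r and Igfbp3 higher, Igfbp4 lower), beside 12.5%. Day 7 gave 2 in the transcriptome (Igfbp3 higher, Igfbp4 lower), beside 9.54%, and 3 in the translatome (Igfbp3 higher, Igfbp2 and Igfbp4 lower), beside 10.7%.

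With both days in 1 fit and the stage as a covariate, 3 genes were called in the transcriptome (Igfbp3 higher, Igfbp2 and Igfbp4 lower), beside 13.3% of all genes. The translatome gave 5 (Igf2r, Igfbp3 and Igfbp7 higher, Igfbp2 and Igfbp4 lower), beside 16.2%. The median log2 change of the 9 genes was −0.01 in the transcriptome and 0.14 in the translatome, against 0.01 and −0.00 over all genes tested. Igfbp3 was the only one of the 9 whose change passed 0.05 after Benjamini-Hochberg adjustment over all genes, and it did so in both fractions. With the replicate number as a block it passed in neither (limma adjusted p = 0.141 in the transcriptome and 0.159 in the translatome). That block joins control and SMA libraries of the same day and number, which are different mice. Their deviations correlated at −0.09 to 0.03 over all genes tested.

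**Figure D1:**
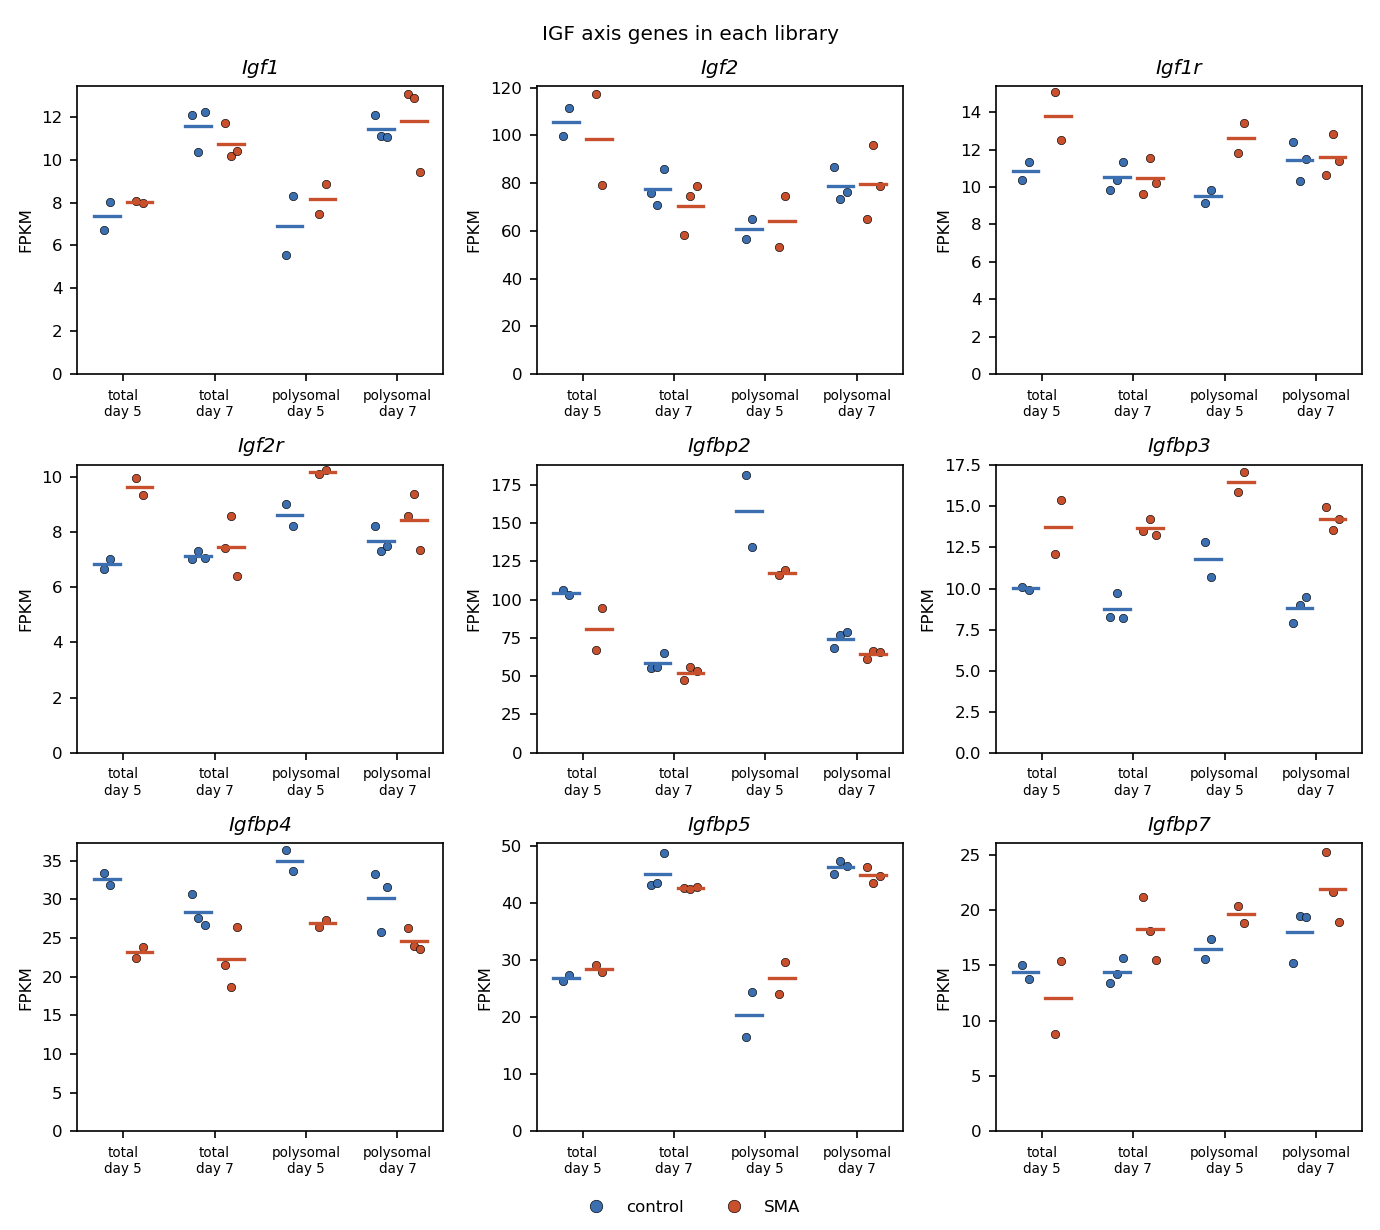
FPKM of the 9 genes (vertical axes from 0) in each of the 20 libraries, by fraction and postnatal day (horizontal axes), with control in blue and SMA in orange and a line at each group mean. Igfbp3 of SMA libraries lies above its controls in all 4 settings, from 12.13 FPKM upward, and Igfbp5 sits between 42.47 and 48.82 FPKM on day 7 in total RNA against 26.41 to 29.08 FPKM on day 5.

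**Figure D2:**
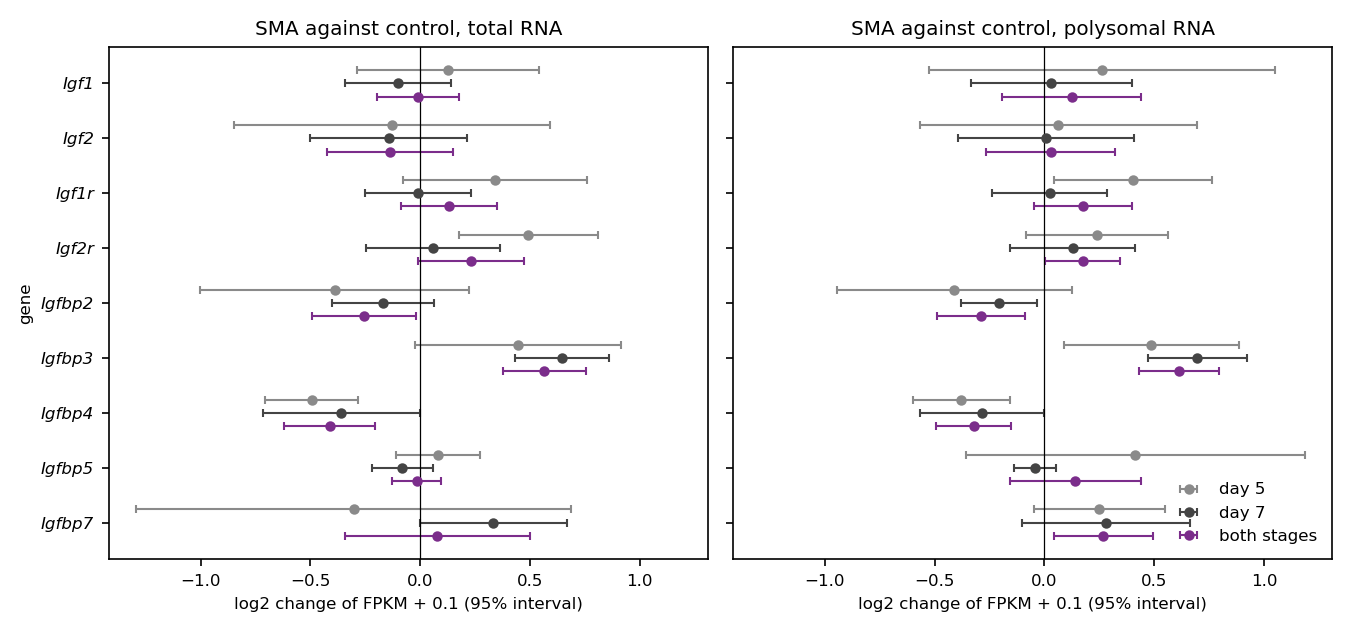
Log2 change of SMA over control (horizontal axis, 0 marked) for each gene in total RNA (left) and polysomal RNA (right), with 95% intervals from limma for day 5, day 7 and both stages together. The intervals of Igfbp3 over both stages run from 0.38 to 0.75 and from 0.43 to 0.79, and those of Igfbp4 lie below 0 in both panels.

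The clearest difference was in Igfbp3 and Igfbp4, binding proteins that moved in opposite directions. Igfbp3, which encodes the main IGF carrier of serum, rose in SMA brain, and Igfbp4, which encodes a binding protein that restrains IGF until it is cleaved, fell. Their promoters are shown because these 2 genes kept their calls over both days, in both fractions, whichever mouse was left out. Each sequence is the 250 bases before the start site listed by RefSeq for GRCm38.p6, 5′ to 3′ on the strand of the gene, with capitals at a TATA-like run. That of Igfbp3 is chr11:7213924-7214173 on the minus strand, and that of Igfbp4 is chr11:99040994-99041243 on the plus strand.
Igfbp3: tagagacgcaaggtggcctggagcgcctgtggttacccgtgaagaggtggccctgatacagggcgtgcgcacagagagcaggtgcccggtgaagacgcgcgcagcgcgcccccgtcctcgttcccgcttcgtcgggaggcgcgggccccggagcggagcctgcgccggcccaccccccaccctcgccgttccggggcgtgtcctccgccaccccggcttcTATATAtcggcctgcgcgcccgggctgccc
Igfbp4: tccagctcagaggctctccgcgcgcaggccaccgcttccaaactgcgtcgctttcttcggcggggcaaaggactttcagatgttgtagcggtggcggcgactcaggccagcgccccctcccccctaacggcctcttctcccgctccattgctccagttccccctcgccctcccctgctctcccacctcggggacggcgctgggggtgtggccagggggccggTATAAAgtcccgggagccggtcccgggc

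The capitals start 30 bases before the start site in Igfbp3 (TATATA) and 28 bases before it in Igfbp4 (TATAAA). On either strand TATAAA occurs in 12.4% of 32851 windows of this length in mouse. The run TATATA occurs in 5.25% of them, and the runs can share bases. None of the windows of the other 7 genes holds either run. G and C make up 73.2% of the Igfbp3 window and 69.2% of the Igfbp4 window. Neither window holds GGGCGG, which is in 32.7% of windows, or CCAAT, which is in 33.8%, or CACGTG, which is in 6.02%. These matches describe the letters only.

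Igfbp3 (ENSMUSG00000020427.9, chromosome 11 of GRCm38, 7206086 to 7213923, minus strand) stood at 10.10 and 9.92 FPKM in the control transcriptome of day 5 and at 12.13 and 15.40 FPKM in SMA. On day 7 the control transcriptome gave 8.26, 9.73 and 8.22 FPKM, and the SMA transcriptome 13.53, 14.21 and 13.28 FPKM. The genotypes did not overlap on either day. In the translatome, control mice had 12.85 and 10.70 FPKM on day 5 and 7.87, 9.02 and 9.48 FPKM on day 7. SMA mice had 15.89 and 17.08 FPKM on day 5 and 14.99, 13.58 and 14.22 FPKM on day 7. Again every SMA library of a day lay above every control library of that day.

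Over both days Igfbp3 rose 1.48-fold in the transcriptome (log2 change 0.56, SE 0.08, limma adjusted p = 0.0269, where 0.623% of all genes passed) and 1.53-fold in the translatome (log2 change 0.61, SE 0.08, adjusted p = 0.0215, where 0.794% passed). It ranked 57 and 33 by p among the 15247 genes. On day 7 the log2 changes were 0.64 (SE 0.08, limma unadjusted p = 0.000529, adjusted p = 0.147) and 0.70 (SE 0.09, unadjusted p = 0.000442, adjusted p = 0.161). On day 5 they were 0.45 (SE 0.15, unadjusted p = 0.0573, adjusted p = 0.551) in the transcriptome, which was not called, and 0.49 (SE 0.13, unadjusted p = 0.0293, adjusted p = 0.386) in the translatome. On day 5 a refit without 1 mouse leaves 1 library in a group. In the transcriptome such refits ran from 0.27 to 0.62, the latter without SMA mouse 1. The day 5 translatome lost its call without control mouse 2 or either SMA mouse, with log2 changes of 0.36 to 0.62 over the refits. It also lost the call with the replicate number as a block (limma unadjusted p = 0.0619). The early and late changes were not shown to differ (limma stage by genotype term 0.20, SE 0.16, adjusted p = 0.607 in the transcriptome, and 0.21, SE 0.15, adjusted p = 0.535 in the translatome).

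Igfbp4 (ENSMUSG00000017493.10, chromosome 11 of GRCm38, 99041244 to 99054392, plus strand) had 33.39 and 31.87 FPKM in the control transcriptome of day 5, and 22.45 and 23.86 FPKM in SMA. On day 7 the controls gave 30.75, 27.65 and 26.64 FPKM, the SMA mice 21.58, 18.73 and 26.46 FPKM. SMA libraries lay below all controls of the same day, with the third SMA mouse of day 7 close to the lowest control. The translatome gave 36.37 and 33.65 FPKM in control against 26.45 and 27.34 FPKM in SMA on day 5. On day 7 control libraries had 33.23, 25.73 and 31.67 FPKM and SMA libraries 26.37, 23.98 and 23.57 FPKM, so that here the groups overlapped by 1 library each.

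Over both days Igfbp4 fell by 0.41 on the log2 scale in the transcriptome (SE 0.09, limma unadjusted p = 0.00171, adjusted p = 0.109) and by 0.32 in the translatome (SE 0.07, unadjusted p = 0.00221, adjusted p = 0.106), levels of 0.751 and 0.799 of control. Neither passed the adjustment. On day 5 the log2 changes were −0.49 (SE 0.07, limma unadjusted p = 0.0043, adjusted p = 0.551) and −0.38 (SE 0.07, unadjusted p = 0.0107, adjusted p = 0.381), and on day 7 −0.36 (SE 0.14, unadjusted p = 0.0487, adjusted p = 0.52) and −0.29 (SE 0.11, unadjusted p = 0.0478, adjusted p = 0.461). The calls of a single day came from few mice. On day 5 a limma refit without 1 mouse leaves 1 library in a group, too few to show whether a call rests on 1 mouse. The day 5 transcriptome lost its call without control mouse 1, with log2 changes of −0.54 to −0.45 over the 4 refits. The day 5 translatome lost its call without either SMA mouse, with −0.43 to −0.32. The day 7 transcriptome kept it only without SMA mouse 3 (p up to 0.133 in the others), and lost it in 6 of 14 other settings (filter at 0.1 FPKM, no filter, equal medians, no trend, and the replicate block with or without the length correction). The translatome of day 7 kept its call in 1 of 6 such refits (p up to 0.128), that without control mouse 2, and lost it with a filter at 0.1 FPKM, no filter or no trend.

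The ratio of Igfbp3 to Igfbp4 within a library, which does not depend on how a library was scaled, lay between 0.237 and 0.353 in the 10 control libraries and between 0.502 and 0.759 in the 10 SMA libraries. The genotypes did not overlap in either fraction or on either day. The ratio uses the same values as the tests above, so it is another view of them and not a second result. Across the 20 libraries, after the mean of each day and fraction was removed, Igfbp3 and Igfbp4 had a Pearson r of −0.77, the most negative of all pairs in the axis, and this description includes the difference between genotypes.

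**Figure D3:**
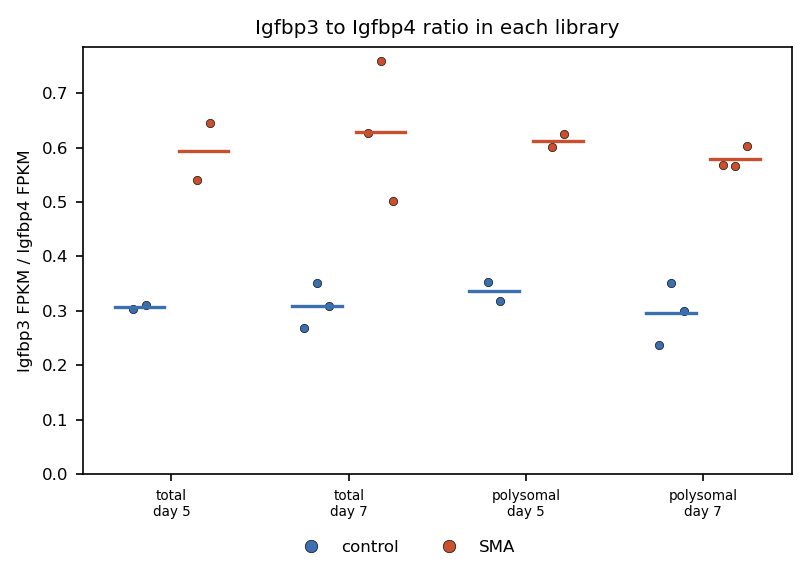
Ratio of Igfbp3 to Igfbp4 FPKM (vertical axis, from 0) in each library by fraction and day (horizontal axis), control in blue, SMA in orange, lines at group means. The 10 SMA points lie between 0.502 and 0.759, above all 10 control points.

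Igfbp2, a binding protein abundant in fetal and early postnatal brain (ENSMUSG00000039323.16, chromosome 1 of GRCm38, 72824503 to 72852474, plus strand), was lower in SMA over both days. In the translatome control libraries had 181.47 and 134.64 FPKM on day 5 and 68.24, 76.60 and 78.99 FPKM on day 7, and SMA libraries had 116.08 and 119.17 FPKM and then 61.38, 66.21 and 65.89 FPKM. The groups did not overlap within a day. The fall was 0.29 on the log2 scale (SE 0.09, limma unadjusted p = 0.0105, adjusted p = 0.188), a level of 0.819 of control. In the transcriptome the values were 106.10 and 102.74 FPKM against 67.08 and 94.60 FPKM on day 5, and 55.67, 56.09 and 65.01 FPKM against 47.61, 56.29 and 53.28 FPKM on day 7. Here the groups overlapped on day 7, and the fall over both days was 0.26 (SE 0.10, limma unadjusted p = 0.0364, adjusted p = 0.342). Without mouse 1 of the early SMA group the fall was 0.16 (limma unadjusted p = 0.043, adjusted p = 0.347). The call was lost without either control mouse of day 5, control mouse 3 of day 7 or SMA mouse 1 of day 7. The limma p there ran up to 0.085, and equal medians ended the call too. On day 5 alone the transcriptome gave −0.39 (SE 0.20, limma adjusted p = 0.552), not called. Refits of day 5 without 1 mouse ran from −0.64 to −0.14, the latter without SMA mouse 1. The call in the day 7 translatome (log2 change −0.21, SE 0.07, limma unadjusted p = 0.0265, adjusted p = 0.41) held in 2 of 6 refits that left out 1 mouse each, those without control mouse 1 or SMA mouse 2, and was lost with equal medians, quantile normalization and all 20 libraries in 1 model.

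Igfbp7 encodes a matrix protein of vessels that binds IGF only weakly (ENSMUSG00000036256.11, chromosome 5 of GRCm38, 77349240 to 77408041, minus strand). Its exons share 85 bases with Polr2b on the other strand, and since the programs were run with default settings, which do not use strand, reads of the 2 genes there cannot be told apart. In the translatome it stood at 15.62 and 17.38 FPKM in control against 20.36 and 18.87 FPKM in SMA on day 5, and at 15.20, 19.47 and 19.41 FPKM against 25.20, 21.66 and 18.88 FPKM on day 7. It was called higher there over both days (log2 change 0.27, SE 0.10, limma unadjusted p = 0.0252, adjusted p = 0.249), with overlap on day 7, and the call was lost without mouse 1 of any of the 4 groups (p up to 0.0583). In the transcriptome the change over both days was 0.08 (SE 0.18, limma adjusted p = 0.883) with the low library of SMA mouse 1 on day 5 (8.79 FPKM), and 0.26 without it (unadjusted p = 0.0392, adjusted p = 0.338). On day 5 alone it was −0.30 (SE 0.33, limma adjusted p = 0.678), not called. Refits of day 5 without 1 mouse ran from −0.70 to 0.10, the latter without that library.

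Igfbp5, a binding protein held in the extracellular matrix (ENSMUSG00000026185.8, chromosome 1 of GRCm38, 72857932 to 72874884, minus strand), had no call between genotypes in the main fits. Its log2 change over both days was −0.02 (95% interval −0.13 to 0.09) in the transcriptome and 0.14 (−0.16 to 0.44) in the translatome. In the translatome of day 5 the control libraries gave 16.45 and 24.43 FPKM and the SMA libraries 24.04 and 29.75 FPKM. With the replicate number as a block it was called higher there (0.41, limma unadjusted p = 0.0469, adjusted p = 0.369). Its stage by genotype term in the translatome was then called as well (−0.46, limma unadjusted p = 0.0122, adjusted p = 0.264). Both calls depend on joining control and SMA libraries of the same number, which are different mice. Without the block the limma unadjusted p was 0.196 for the change on day 5 and 0.081 for the stage by genotype term.

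The ligands were not called between genotypes in any of the 6 comparisons. Igf1 (ENSMUSG00000020053.16, chromosome 10 of GRCm38, 87858265 to 87937042, plus strand) had 6.71 and 8.01 FPKM in the control and 8.06 and 7.97 FPKM in the SMA transcriptome of day 5, and 12.11, 10.37 and 12.21 FPKM against 11.70, 10.16 and 10.41 FPKM on day 7. The groups overlapped on both days. The change over both days was −0.01 (95% interval −0.20 to 0.18) in the transcriptome and 0.12 (−0.19 to 0.44) in the translatome.

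Igf2, an imprinted gene expressed in brain mainly by choroid plexus, meninges and vessels (ENSMUSG00000048583.14, chromosome 7 of GRCm38, 142650766 to 142666816, minus strand), had a log2 difference of −0.14 (95% interval −0.43 to 0.15) in the transcriptome and 0.03 (−0.27 to 0.32) in the translatome over both days. Without SMA mouse 1 of day 5 the transcriptome gave −0.23 (limma adjusted p = 0.44). In the Gencode M21 annotation 3596 of its exon bases, 62.8%, also belong to the readthrough gene Gm49394, which is not a row of the table, and 98 bases lie opposite the antisense gene Igf2os. Its FPKM may thus include reads of such transcripts. On day 5 alone the transcriptome gave a log2 change of −0.13 (SE 0.24, limma adjusted p = 0.811). Refits without 1 mouse ran from −0.41 (without SMA mouse 1) to 0.16, so the direction turned with the mouse left out.

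Each receptor was called higher in SMA on day 5 in 1 fraction, Igf2r in the transcriptome and Igf1r in the translatome, and neither was called on day 7. Igf2r (ENSMUSG00000023830.11, chromosome 17 of GRCm38, 12682406 to 12769664, minus strand) had 6.64 and 7.0 FPKM in control against 9.96 and 9.32 FPKM in SMA in the day 5 transcriptome, a log2 change of 0.49 (SE 0.10, limma unadjusted p = 0.0145, adjusted p = 0.551). On day 7 it had 7.02, 7.29 and 7.04 FPKM against 7.42, 8.58 and 6.39 FPKM, a change of 0.06 (SE 0.12, adjusted p = 0.912). The test of the difference between the days gave −0.44 (SE 0.16, limma unadjusted p = 0.0302, adjusted p = 0.486), 1 call among the 9 genes beside 10.1% of all genes. In the translatome the log2 change of Igf2r was 0.24 on day 5 (SE 0.11, limma adjusted p = 0.436) and 0.13 on day 7 (SE 0.11, adjusted p = 0.7), and the difference between the days was −0.11 (SE 0.16, adjusted p = 0.758), with no call. Refits of the day 5 transcriptome without 1 mouse gave 0.45 to 0.54, the former without SMA mouse 1.

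Igf1r (ENSMUSG00000005533.9, chromosome 7 of GRCm38, 67952827 to 68233668, plus strand) had 9.15 and 9.85 FPKM in control against 11.80 and 13.43 FPKM in SMA in the day 5 translatome, a log2 change of 0.40 (SE 0.12, limma unadjusted p = 0.0367, adjusted p = 0.392). On day 7 it had 12.42, 10.33 and 11.51 FPKM against 10.66, 12.81 and 11.37 FPKM, a change of 0.02 (SE 0.10, adjusted p = 0.968). The difference between the days was −0.38 (SE 0.16, limma unadjusted p = 0.0453, adjusted p = 0.358), 1 call beside 13.7% of all genes. In the day 5 transcriptome Igf1r had 10.39 and 11.31 FPKM against 15.10 and 12.52 FPKM (log2 change 0.34, SE 0.14, limma adjusted p = 0.551, not called). Refits there without 1 mouse gave 0.21 to 0.47, the former without SMA mouse 1.

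The 2 receptor transcripts are the longest of the axis, 11409 nt for Igf1r and 8887 nt for Igf2r. When the dependence on length was removed from each library, the day 5 changes became 0.27 for Igf2r in the transcriptome (limma unadjusted p = 0.0529) and 0.13 for Igf1r in the translatome (unadjusted p = 0.274), and both stage by genotype calls were lost (−0.20 and −0.08). Igfbp3 gave 0.59 and 0.63 over both days and Igfbp4 −0.42 and −0.32 after the same correction. The part of transcript length in these values was not tested further. Igf2r was also called in the translatome over both days (0.17, SE 0.07, unadjusted p = 0.0481, adjusted p = 0.305), where the correction left 0.10. The stage by genotype call of Igf2r held in 5 of 10 refits without 1 mouse (lost without control mouse 1 or 2 or SMA mouse 1 of day 5, or control mouse 2 or SMA mouse 1 of day 7, p up to 0.0924), and that of Igf1r in 3 of 10 (those without SMA mouse 1 of day 5, control mouse 2 of day 7 or SMA mouse 2 of day 7, p up to 0.156). On day 5 a refit without 1 mouse leaves 1 library in a group, too few to show whether a call rests on 1 mouse. The early call of Igf2r was lost without either control mouse, with log2 changes of 0.45 to 0.54 over the 4 refits. That of Igf1r was lost without any of the 4, with 0.31 to 0.50. The call of Igf2r over both days held in 2 of 10 refits without 1 mouse (limma p up to 0.118).

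Translation efficiency (TE), the polysomal level relative to the total level, was compared by the interaction of genotype and fraction. None of the 9 genes was called in limma on day 5 at an unadjusted p under 0.05, beside 2.32% of all genes, nor on day 7, beside 2.07%. The log2 difference in TE of Igfbp3 was 0.04 (95% interval −0.48 to 0.57) on day 5 and 0.05 (−0.22 to 0.32) on day 7, and that of Igfbp4 0.12 (−0.14 to 0.37) and 0.07 (−0.35 to 0.50). Differences in TE of any size within these intervals are not excluded. With the replicate number as a block none of the 9 was called either, beside 2.77% and 4.32% of all genes. The labels do not say whether total and polysomal libraries of 1 number share a brain.

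In control brain alone 3 genes were called higher in polysomal than in total RNA (Igfbp2, Igfbp7 and Igf2r), where 39.5% of all genes were called and 23.2% were called higher. Igfbp2 was 1.35-fold higher (log2 0.44, SE 0.10, limma adjusted p = 0.0149). Igfbp7 (0.27, SE 0.08, adjusted p = 0.0523) and Igf2r (0.19, SE 0.06, adjusted p = 0.0536) missed the adjusted threshold. With the replicate number as a block the limma adjusted p was 0.0474 for Igfbp7 and 0.115 for Igf2r. Igfbp7 lost its call without control mouse 2 of day 5 or of day 7 (p up to 0.0644) and Igf2r without either control mouse of day 5 or control mouse 1 of day 7 (p up to 0.0596).

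Day 7 was set against day 5 with the genotype as a covariate. In the transcriptome 4 genes were called between day 7 and day 5 (Igf1 and Igfbp5 higher, Igf2 and Igfbp2 lower), beside 49.6% of all genes, and in the translatome 7 (Igf1, Igf2 and Igfbp5 higher, Igfbp2, Igfbp3, Igfbp4 and Igf2r lower), beside 54.7%. The translatome call of Igfbp4 (−0.17, limma unadjusted p = 0.0494, adjusted p = 0.0904) held in 3 of 10 refits without 1 mouse (those without control mouse 1 or 2 or SMA mouse 1 of day 7) and in 4 of 14 other settings. That of Igf2r was lost without control mouse 1 or either SMA mouse of day 5 (p up to 0.0567) and with the replicate block. With so many genes called, these counts are near the background. Whether the 2 days were prepared or sequenced apart is not given in the sources used here, so that such a difference and the day cannot be told apart.

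Igfbp5 rose 1.58-fold in the transcriptome (log2 0.66, SE 0.05, limma adjusted p = 7.24e-05) and 1.96-fold in the translatome (0.97, SE 0.13, adjusted p = 0.000896). Its day 5 transcriptome lay between 26.41 and 29.08 FPKM and its day 7 transcriptome between 42.47 and 48.82 FPKM, so the days did not overlap. Igf1 rose 1.45-fold (0.53, SE 0.08, adjusted p = 0.00179) and 1.54-fold (0.63, SE 0.14, adjusted p = 0.00786). Igf1 libraries spanned 6.71 to 8.06 FPKM on day 5 and 10.16 to 12.21 FPKM on day 7 in total RNA, again with no overlap.

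Igfbp2 fell to 0.608 of its day 5 level in the transcriptome (log2 −0.72, SE 0.11, limma adjusted p = 0.00134) and to 0.511 in the translatome (−0.97, SE 0.09, adjusted p = 0.000197). In control total RNA it made up 55.5% and 55.3% of the summed FPKM of the 5 binding proteins on day 5 and 36.8% to 39.6% on day 7. Igfbp3 fell by 0.31 in the translatome (SE 0.08, adjusted p = 0.0139). Its day effect in the transcriptome was −0.10 (SE 0.08, adjusted p = 0.376).

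Igf2 went in opposite directions in the 2 fractions. Its transcriptome value fell by 0.46 from day 5 to day 7 (SE 0.13, limma adjusted p = 0.0224), whereas its translatome value rose by 0.35 (SE 0.13, unadjusted p = 0.0276, adjusted p = 0.0567), a call lost without mouse 1 of either genotype of day 5, control mouse 1 of day 7 or SMA mouse 2 of day 7 (p up to 0.0932). Control mice had 99.66 and 111.53 FPKM in total and 56.35 and 64.72 FPKM in polysomal RNA on day 5, and 75.73, 70.89 and 85.88 FPKM against 86.76, 73.24 and 76.14 FPKM on day 7. SMA mice had 117.43 and 79.20 FPKM against 53.30 and 74.64 FPKM on day 5, and 58.08, 74.73 and 78.64 FPKM against 64.81, 95.72 and 78.83 FPKM on day 7. Polysomal values were thus below all total values of the same genotype on day 5 and overlapped them on day 7.

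A test of this difference was added after these values were seen. The stage by fraction term over both genotypes was 0.81 for Igf2 (SE 0.19, limma unadjusted p = 0.000424, adjusted p = 0.116). Igf1r (0.29, SE 0.14, unadjusted p = 0.0475, adjusted p = 0.395) and Igfbp5 (0.31, SE 0.15, unadjusted p = 0.0455, adjusted p = 0.39) were called as well, 3 of the 9 genes beside 12.4% of all genes. With the replicate number as a block, Igfbp2 (−0.25, limma unadjusted p = 0.0323, adjusted p = 0.241) and Igfbp3 (−0.21, unadjusted p = 0.0346, adjusted p = 0.245) were called as well, 5 of the 9 beside 17.9% of all genes. The ratio of polysomal to total FPKM of Igf2, formed between libraries of the same number, was 0.565 and 0.580 in control on day 5 and 0.887 to 1.15 on day 7. In SMA it was 0.454 and 0.942 on day 5 and 1.00 to 1.28 on day 7, so that the second SMA mouse of day 5 lay within the control range of day 7. H19, the untranslated RNA imprinted in the opposite sense and lying 72622 nt from Igf2, stood at 38.76 and 39.88 FPKM in total and 4.99 to 6.04 FPKM in polysomal RNA of control mice on day 5.

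Beyond the 9 genes, 50 further genes of the pathway were listed with earlier results of these data known, of which 41 reached the level tested. In the transcriptome over both days 9 were called higher and 1 lower in SMA (beside 13.3% of all genes), with a median log2 change of 0.08 against 0.01 over all genes. In the translatome 10 were called higher and 1 lower (beside 16.2%), with a median of 0.10 against −0.00. Those called made up 24.4% and 26.8% of the 41. These counts and medians were taken without the length correction. On day 5 the numbers were 3 higher and 0 lower in the transcriptome (7.32% of the 41, beside 8.25% of all genes) and 5 and 0 in the translatome (12.2%, beside 12.5%). On day 7 they were 7 and 1 in the transcriptome (19.5%, beside 9.54%) and 2 and 1 in the translatome (7.32%, beside 10.7%). In 3 of these 4 settings the share was thus near or below that of all genes. In TE none was called in limma on either day at an unadjusted p under 0.05.

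Htra1, a secreted serine protease known to cleave IGF-binding proteins, was higher in SMA in all 4 settings and was the only one of the 41 that passed the adjustment. In the transcriptome it stood at 18.64 to 22.36 FPKM in control and 32.87 to 42.65 FPKM in SMA on day 5, and at 24.71 to 29.51 FPKM against 38.80 to 44.77 FPKM on day 7. In the translatome it stood at 25.31 to 31.45 FPKM against 43.29 to 52.03 FPKM on day 5, and at 31.28 to 40.80 FPKM against 53.70 to 61.20 FPKM on day 7. The genotypes did not overlap in any setting. Over both days its log2 change was 0.72 (SE 0.10, limma adjusted p = 0.0207) and 0.70 (SE 0.10, adjusted p = 0.0235). Pappa, the protease that cleaves IGFBP-4, lay under the level tested, at 0.68 to 1.04 FPKM in control and 0.81 to 1.23 FPKM in SMA.

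Downstream, Mtor, the kinase of the mTOR complexes, was called higher over both days (log2 0.30, SE 0.07, limma adjusted p = 0.119 in the transcriptome, and 0.31, SE 0.08, adjusted p = 0.133 in the translatome). The adaptor Irs4 was called higher (0.38, SE 0.09, adjusted p = 0.11, and 0.36, SE 0.11, adjusted p = 0.172), and the adaptor Shc1 lower (−0.18, SE 0.08, adjusted p = 0.364, and −0.26, SE 0.06, adjusted p = 0.101). Irs1, Foxo1 and Foxo3 were called higher in both fractions as well. Apart from Insr, the genes named here are given without the length correction. Insr, the insulin receptor, was called higher on day 5 (0.38, SE 0.12, and 0.40, SE 0.11, limma adjusted p = 0.551 and 0.391), and the length correction left 0.15 and 0.17. It was also called higher over both days (0.20 and 0.19, limma adjusted p = 0.289 and 0.301). Its stage by genotype term was called in both fractions (−0.31, SE 0.10, adjusted p = 0.486, and −0.35, SE 0.12, adjusted p = 0.32), and the length correction left −0.07 and −0.10. Eif4ebp1, a repressor of translation that mTOR switches off, was called higher in the translatome of day 7 (0.80, SE 0.19, adjusted p = 0.289).

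Ghr, the growth hormone receptor, was not called in any comparison of genotypes (over both days −0.03, SE 0.11, and 0.01, SE 0.07, limma adjusted p = 0.931 and 0.958). Irs2 was called higher over both days in the translatome alone (0.17, SE 0.07, adjusted p = 0.306). H19 was called lower in the transcriptome of day 7 (−0.41, SE 0.08, limma unadjusted p = 0.00396, adjusted p = 0.299), at 14.69 to 16.35 FPKM in SMA against 19.52 to 23.06 FPKM in control. Airn, the antisense RNA that starts within Igf2r, was at 2.21 to 4.56 FPKM with no call. Of the other binding proteins, Igfbpl1 and Igfbp6 had no call between genotypes, and Igfbp1 was at 0.00 to 0.09 FPKM, under the level tested.

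The 3 genes closest to each member were taken by Pearson r over the 20 libraries, after the mean of each day and fraction was removed, among 14334 other genes. The genotype difference stays in these values, so they describe shared libraries and no more. Igfbp3 was closest to Aldoc (r 0.96), which encodes the brain aldolase, to Agt (0.95), which encodes angiotensinogen, and to Cyp2j9 (0.95). Igfbp4 was closest to Prdx3 (0.92), AU021092 (0.86) and Bsg (0.86), which encodes basigin, a protein of brain endothelium. Igf1r was closest to Afap1 (0.95), and Igf2r to Heatr5b (0.90), Igfbp2 to Mospd1 (0.93), Igfbp5 to Tmed10 (0.93), Igfbp7 to Lhx1os (0.91), Igf1 to Cplx1 (0.85) and Igf2 to Pak6 (0.81). Within the axis Igf1r and Igf2r (r 0.73) and Igf1 and Igfbp5 (0.73) were the most alike.

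Several of these genes are expressed by vessels, meninges or choroid plexus, and markers of these cells moved with the genotype. Of 9 endothelial markers, 7 were called lower in each fraction over both days and 0 higher (median log2 change −0.56 and −0.54), beside 6.36% and 8.3% of all genes called lower and 6.95% and 7.88% called higher. Cldn5, the tight-junction gene and the most abundant of the list, stood at 43.76 and 52.92 FPKM in control and at 18.53 to 18.86 FPKM in SMA in total RNA on day 5. The summed endothelial markers were 95.78 and 88.22 FPKM in control against 53.82 and 46.97 FPKM in SMA on day 5, and 64.08, 72.82 and 80.64 FPKM against 49.22, 51.92 and 46.62 FPKM on day 7, in total RNA. In polysomal RNA they were 157.82 and 113.36 FPKM against 69.27 and 55.41 FPKM, and 83.54, 81.85 and 92.82 FPKM against 60.70, 61.37 and 52.77 FPKM. The genotypes did not overlap, and no endothelial marker was at 0 in any library.

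Of the 8 mural cell markers 7 were tested, 5 of them called lower and 1 higher over both days in each fraction. Their sum, led by Rgs5, was 65.46 to 73.15 FPKM in control and 38.95 to 48.57 FPKM in SMA total RNA. It was 81.39 to 89.71 FPKM against 46.90 to 59.42 FPKM in polysomal RNA, with no overlap. Of the 10 fibroblast markers, led by Col1a2, 5 were called lower and 2 higher in each fraction, with sums of 123.71 to 128.57 FPKM in control and 78.29 to 104.48 FPKM in SMA total RNA. In polysomal RNA the fibroblast sums were 109.23 to 149.48 FPKM in control and 83.80 to 123.08 FPKM in SMA. None of these markers was at 0 in a library.

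Choroid plexus markers went the other way on day 7, where 5 of the 9 tested, of 10 listed, were called higher and 0 lower in each fraction, beside 4.84% and 5.35% of all genes called higher. Their sum, led by Ttr, was 448.16, 453.99 and 416.80 FPKM in control against 877.10, 781.54 and 686.80 FPKM in SMA total RNA. In polysomal RNA it was 630.18, 583.48 and 516.84 FPKM in control against 1186.14, 1065.75 and 888.41 FPKM in SMA. On day 5 the sums overlapped in total RNA (809.46 and 766.92 FPKM against 448.38 and 842.79 FPKM) and in polysomal RNA, with 0 called in total and 1 called higher in polysomal RNA.

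Igfbp4 and Igfbp2 were thus lower over both days beside mostly lower markers of endothelial cells and mural cells. Fibroblast markers were mixed, more often called lower than higher, and their polysomal sums overlapped between the genotypes on day 7. Igfbp7, which encodes a protein of vessels, was called higher in the translatome (0.27) and not called in the transcriptome (0.08). Igf2, expressed mainly by choroid plexus, meninges and vessels, was not called (−0.14 in the transcriptome, 0.03 in the translatome). Igfbp3 was higher over both days beside choroid plexus markers of which 3 of 9 were called higher in the transcriptome and 4 of 9 in the translatome. On day 5 alone 0 of these 9 markers were called in the transcriptome and 1 in the translatome. Igfbp3 of SMA libraries already lay above its controls on that day, with a call in the translatome only. What part these cells have in the values of the axis was not tested, and in whole brain fewer cells of a type and less RNA per cell cannot be told apart. Among the other lists over both days, beside 13.3% of all genes called in the transcriptome and 16.2% in the translatome, neurons had 1 of 8 markers called higher in each fraction, with Tubb3 at 0 in 2 libraries. Astrocytes had 2 of 6 higher in the transcriptome and 1 lower in the translatome. Microglia had 1 of 7 higher and 1 lower in the transcriptome and 2 lower in the translatome, the oligodendrocyte lineage 1 of 6 higher and 2 lower and then 1 lower, and erythroid genes 2 of 5 lower in both fractions. In lists of this size 1 called marker is near the share of all genes. Pituitary genes, led by Pomc, summed to at most 4.85 FPKM.

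**Figure D4:**
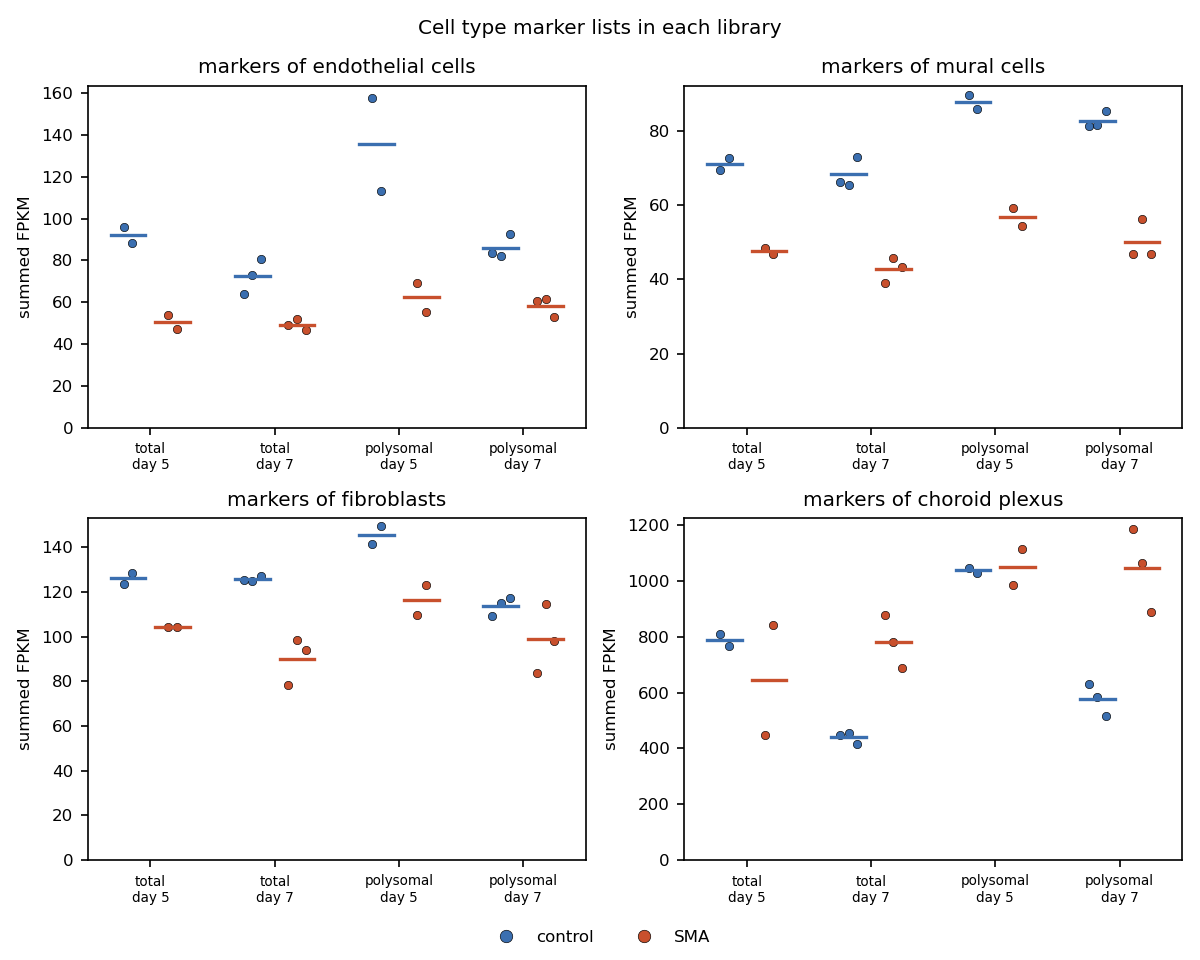
Summed FPKM of 4 marker lists (vertical axes, from 0) in each library by fraction and day (horizontal axes), control in blue, SMA in orange, lines at group means. Endothelial and mural sums of SMA libraries lie below all controls of the same fraction and day, and choroid plexus sums lie above them on day 7.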

How the data were processed

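Total and polysomal RNA of 20 libraries was sequenced by the authors (stranded total RNA kit, 100 bp reads), aligned to GRCm38.p4 with TopHat2 2.0.14 and the Gencode M6 annotation, and quantified with Cufflinks 2.2.1. The deposited table holds the authors' FPKM per gene and library, with no counts, so the depth behind a value is unknown and no counting interval was formed. All programs ran with their defaults, which for TopHat2 and Cufflinks do not use strand.

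Values were analysed in R 4.3.3 with limma 3.58.1 (lmFit, eBayes with a trend) on log2(FPKM + 0.1), for the 15247 genes whose mean reached 1 FPKM. Calls used an unadjusted p under 0.05, as the study did, with Benjamini-Hochberg adjusted p-values beside them. Fold changes on this scale understate those of low genes. CuffDiff and Xtail need alignments or counts and were not run. The fit was tested on simulated data. An exact permutation test of 2 against 2 cannot go below 0.333, nor 3 against 3 below 0.1, so none was used.

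Groups came from the labels. The members and lists were chosen with earlier results of these data known. The genes named were the members, pathway genes that were called or listed as always shown, and the 3 genes most like each member. Gene positions are from Gencode M21 and the length correction was a lowess curve (span 0.3) on the longest transcript, which 99.4% of the genes tested have. Same-numbered total and polysomal libraries deviated together over 9779 coding genes of at least 5 FPKM (r 0.12 to 0.54, where the 2 early pairs of a genotype mirror each other) but not over all genes tested (−0.04 to 0.11), so comparisons between fractions were also fitted with the replicate number as a block. All other comparisons were fitted with such a block too, as an alternative setting. There it joins different mice, either control and SMA libraries of the same day and number or, between days, all libraries of 1 number. Alternatives are given at the end.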

Additional observations from a re-analysis of the deposited data

Results flagged for a closer look

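The genotype effects of Igf2r and Igf1r on day 5 and day 7 were each called different in 1 fraction, 1 call of 9 genes beside 10.1% of all genes in the transcriptome and 13.7% in the translatome. The stage by genotype term was −0.44 for Igf2r in the transcriptome (limma adjusted p = 0.486) and −0.38 for Igf1r in the translatome (adjusted p = 0.358), and a correction for transcript length left −0.20 and −0.08. The calls held in 5 and 3 of 10 refits that left out 1 mouse.

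For Igf2, Igfbp5 and Igf1r the change from day 5 to day 7 was called different between the fractions, 3 of 9 genes beside 12.4% of all genes. The stage by fraction term was 0.81 for Igf2 (limma adjusted p = 0.116), 0.31 for Igfbp5 (adjusted p = 0.39) and 0.29 for Igf1r (adjusted p = 0.395). The call of Igf2 held in all 10 refits that left out 1 mouse and in all 14 other settings, those of Igfbp5 and Igf1r in 2 and 4 of the 10 refits and in 9 and 10 of the 14 settings. The causes were not tested.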

How the results depend on the processing

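The settings tried were other pseudocounts and filters on low values, equal medians, quantile normalization, a length correction, no trend, robust variances, all 20 libraries in 1 model, a replicate block, stricter thresholds and each mouse left out. For the 9 genes no direction of a called result reversed under these settings. Of 37 calls in all comparisons 17 held in every refit without 1 mouse, among them those of Igfbp3 in the day 7 comparisons and those of Igfbp3 and Igfbp4 over both days. Such refits were run for the 9 genes alone.

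Main counts of called members are given in the report. At an adjusted p under 0.05 they became 0 in each single-day comparison of genotypes, in both stage by genotype tests and in stage by fraction, and 1 in each fraction over both stages and in polysomal against total. At an unadjusted p under 0.01 they became 1 in total early, 0 in polysomal early, 1 in total late, 1 in polysomal late, 2 in polysomal over both stages, 0 in both stage by genotype tests, 1 in polysomal against total, 4 in day 7 against day 5 polysomal and 1 in stage by fraction. With all 20 libraries in 1 model they were 5 in total early, 5 in polysomal early, and 3 (total) and 2 (polysomal) in stage by genotype. Counts of all genes called moved with the settings as well, in total early up to 4319 of 15247. These counts of members are therefore no result about the members. A filter at 0.1 FPKM, no filter and no trend each gave 1 in total late, and no filter gave 1 in TE early. Equal medians and quantile normalization gave 0 in stage by genotype polysomal and 1 in stage by fraction, the length correction 0 in both stage by genotype tests and 1 in stage by fraction, and no trend 1 in stage by fraction.

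Leaving out each mouse gave 1 to 3 in total late and 1 to 2 in polysomal late. Over both stages it gave 2 to 4 in total and 3 to 5 in polysomal. Stage by genotype gave 0 to 5 (total) and 0 to 2 (polysomal). Polysomal against total gave 1 to 3, day 7 against day 5 polysomal 4 to 7 and stage by fraction 1 to 4. Fits of day 5 alone are not counted here, since a group would hold 1 library. The share of all genes called is not given for each refit, so these counts are no result about the members. The causes were not tested.

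Between genotypes the replicate numbers were not taken to pair the libraries: same-numbered control and SMA libraries had deviations correlated at −0.09 to 0.03 over all genes tested and at −0.30 to 0.20 over coding genes, and own numbers were the best match for 0 of 6 late libraries. Between fractions the answer depended on the genes used: own numbers were the best match for 3 of 6 late libraries over all genes and for 6 of 6 over coding genes. The replicate block was nevertheless fitted for every comparison, as an alternative setting. With it 1 gene was called in total early, 1 in total late, 3 in polysomal over both stages and 5 in stage by fraction. The block and the length correction together gave 1 in total late and 0 in stage by genotype total. In polysomal early the block called Igfbp5 in place of Igfbp3, and in stage by genotype polysomal Igfbp5 in place of Igf1r. The block raised the count of all genes called in TE late from 315 to 659 and left the members at 0.

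Counts of all genes called moved by more than 1.5 times under some settings, from 1258 to between 25 and 4319 in total early, from 1902 to between 99 and 3814 in polysomal early, from 1454 to between 17 and 2295 in total late and from 1637 to between 14 and 2546 in polysomal late. Over both stages they moved from 2029 to between 95 and 3207 and from 2467 to between 121 and 3504, in stage by genotype from 1547 to between 19 and 4220 and from 2084 to between 91 and 3717, in TE from 354 to between 94 and 1531 and from 315 to between 6 and 996, in polysomal against total from 6028 down to 3514 and in stage by fraction from 1886 to between 27 and 3132. The table has no counts, so that the depth behind low values is unknown.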
